A study of Mus musculus with 8 samples.

Results

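Fap, Pdpn, Thy1, Cd248, Pdgfra and Pdgfrb encode surface proteins by which synovial fibroblasts are stained, sorted and told apart. These genes were taken by their symbols, 6 of the 32285 genes in the deposited matrices, and their transcripts were read in the 24227 cells that the authors had annotated, of which 21731 were fibroblasts. The cells came from ankle and wrist synovium, the soft tissue that encloses the joint, of 17 mice, and were profiled by droplet sequencing of transcript ends in 4 libraries, with a hashtag antibody marking the animal of each cell. In 3 libraries the cells were viable and CD45- (the labels add GR-1), which leaves out most blood cells, and in the remaining library they were CD45- and sorted for FAP and Pdpn protein. The questions set by this design are how the fibroblasts of arthritic and healthy joints differ, how inhibition of TNF or IL-17 changes arthritic fibroblasts, and what a sort on FAP and Pdpn collects.

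Arthritic animals carried hTNFtg197, a human TNF transgene (strain B6-Tg(TNF)197Gkl), and had been given Il23mc for 9 days. Healthy animals were wild type (WT) and had neither the transgene nor Il23mc. All were 8 to 10 weeks old. The untreated library held 3 arthritic animals without an inhibitor, the TNF-inhibited library 3 arthritic animals given an antibody against human TNF, and the IL-17-inhibited library 3 arthritic animals given an antibody against mouse IL-17A, and each of these libraries also held 1 healthy animal. The FAP-sorted library held 5 arthritic animals without an inhibitor. The sources used here do not say how long the antibodies were given, or which promoter and cells drive the transgene. The effects of the transgene and of Il23mc cannot be told apart, since every arthritic animal had both, and a treatment cannot be told apart from its library, since each library held 1 condition and its animals were pooled in 1 well.

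FAP is a serine protease of the cell surface, a close relative of DPP4, that is known to rise in activated fibroblasts of wounds, tumours and inflamed joints. Podoplanin, the product of Pdpn, is a mucin-like glycoprotein that binds the platelet receptor CLEC-2 and is linked to the cytoskeleton through ezrin and moesin. THY1 (CD90) is held in the membrane by a lipid anchor and separates fibroblasts beneath the synovial lining, which carry it, from those of the lining, which do not. CD248 (endosialin) is a lectin-like glycoprotein of fibroblasts beneath the lining and around vessels. PDGFRA and PDGFRB are the receptor tyrosine kinases for platelet-derived growth factors, and PDGFRB is also a marker of mural cells, the pericytes and smooth muscle cells of vessel walls.

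In GENCODE vM21 on GRCm38, Fap (ENSMUSG00000000392) lies on the minus strand at chr2:62500943-62574075, Pdpn (ENSMUSG00000028583) on the minus strand at chr4:143267431-143299564, and Thy1 (ENSMUSG00000032011) on the plus strand at chr9:44043384-44048579. Cd248 (ENSMUSG00000056481) lies on the plus strand at chr19:5068078-5070682, and Pdgfra (ENSMUSG00000029231) on the plus strand at chr5:75152292-75198215. Pdgfra overlaps the antisense genes Gm42802 and Gm42803 and the microRNA gene Mir7025, and the sources used here do not say how the counting treated strand. RefSeq promoters (build GRCm38.p6) matched 2 of the 6 genes, Pdpn and Pdgfra, and Fap, Thy1, Cd248 and Pdgfrb had no entry. These promoters are shown because they are the ones with an entry, for genes that were both called in Cd200+ cells, Chondrocytes and Lining cells of arthritic animals, in the same direction in the first 2 classes and in opposite directions in Lining cells. Each is the 250 bases before the transcription start, 5′ to 3′ on the gene's strand, Pdpn from chr4:143299565-143299814 (minus strand, 43.2% GC) and Pdgfra from chr5:75152001-75152250 (plus strand, 54.4% GC).
Pdpn: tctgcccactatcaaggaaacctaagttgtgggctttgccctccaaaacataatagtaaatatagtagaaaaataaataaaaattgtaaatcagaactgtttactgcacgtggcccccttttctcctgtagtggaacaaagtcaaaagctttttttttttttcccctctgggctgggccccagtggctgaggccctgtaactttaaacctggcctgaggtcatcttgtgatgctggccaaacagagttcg
Pdgfra: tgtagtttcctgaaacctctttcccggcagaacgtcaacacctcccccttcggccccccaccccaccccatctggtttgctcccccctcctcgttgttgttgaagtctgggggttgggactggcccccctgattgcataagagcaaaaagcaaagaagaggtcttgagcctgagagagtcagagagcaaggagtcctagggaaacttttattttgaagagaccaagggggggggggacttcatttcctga
Motif searches on both strands used TGANTCA, the site of AP-1, GGGCGG, the GC box, TATAAA, the TATA box, and CCAAT, the CCAAT box, and no letters are in capitals because neither window held any of them. Among all 32851 promoters, windows of the same length held these motifs in 6.75%, 32.7%, 12.4% and 33.8%, respectively.

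Pdgfrb (ENSMUSG00000024620) lies on the plus strand at chr18:61045150-61085061. The fibroblasts of an animal numbered 413 to 2037 and held 4508588 to 36786390 unique molecular identifiers (UMIs, counts of transcript molecules), with a median of 9203 to 20813 per cell. Healthy animals rest on weaker hashtag evidence than the others. The annotated hashtag had the highest raw count in 34.8% of healthy fibroblasts in the untreated, 22.7% in the TNF-inhibited and 9.93% in the IL-17-inhibited library, against 96.2% to 100% in the other animals, while after a centred log-ratio per hashtag it was highest in all of them. A Y-linked UMI was found in 2.94%, 23.1% and 17.7% of the fibroblasts of these 3 healthy animals, which by Xist were mostly female, so results against healthy animals are also given without such cells. The FAP-sorted library stood apart in more than its sort: it was made with Cell Ranger 5.0.0 rather than 6.0.0, per the file headers, its animals had deposited stress scores of 0.164 to 0.404 against 0.712 to 0.934 elsewhere, a mitochondrial share of 3.41% to 3.71% against 1.82% to 2.41%, and 52 to 91 hashtag UMIs per cell against 241 to 1753. Only 60 barcode sequences occurred in more than 1 library, covering 0.495% of the cells.

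The annotation divides fibroblasts into 5 classes, Lining, Mmp3+, Il6+, Cd200+ and Pi16+, and adds Chondrocytes and Osteoblasts. Lining markers (6 genes) summed to 65200 CPM in Lining cells and to at most 6500 in the other classes, and osteoblast markers to 11800 in Osteoblasts against 697 or less elsewhere. The chondrocyte markers summed to only 114 CPM in the cells annotated as Chondrocytes, against 60.5 in Osteoblasts, so that name has thin support and is used as the authors' label. CPM is the usual depth-scaled count of a summed animal, or of a class within an animal, on library sizes corrected by the trimmed mean of M values (TMM). It is not scaled by transcript length, so levels are compared between cells and not between genes.

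Each of the 6 genes had its own order of classes. The values that follow are class means over animals with at least 20 cells of the class (SD, n animals), given as a description without a test, since classes were made from the same transcripts. Fap, the protease, was highest in Osteoblasts at 209 ± 40 CPM (SD, n = 15), above each other class in every animal that had both. Cd200+ cells came next at 101 ± 13.3 (SD, n = 17) and were above Lining cells in 17 of 17 animals and above Mmp3+ cells in 14 of 15. Mmp3+ cells had 65.8 ± 25.9 (SD, n = 15), Il6+ cells 55.1 ± 19.3 (SD, n = 17), Pi16+ cells 49.2 ± 16.2 (SD, n = 12), Chondrocytes 47.1 ± 14.0 (SD, n = 15) and Lining cells 39.5 ± 13.7 (SD, n = 17), neighbours that lay within 1 SD of each other. These means include the FAP-sorted animals. Within animals, Mmp3+ cells were above Il6+ cells in 13 of 15, and Lining cells were below Mmp3+ cells in 14 of 15 and below Il6+ cells in 15 of 17. Il6+ cells were above Pi16+ cells in 8 of 12 and above Chondrocytes in 8 of 15. Within Osteoblasts the mean of Fap ran from 180 CPM in FAP-sorted to 256 in TNF-inhibited animals, above the mean of any other class.

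Pdpn was highest in Il6+ cells at 442 ± 104 CPM (SD, n = 17) and lowest in Osteoblasts at 144 ± 49.5 (SD, n = 15), and both ends of this order held in every animal that had the classes compared. Mmp3+ cells (309 ± 63.6, SD, n = 15) and Lining cells (301 ± 94.1, SD, n = 17) could not be ordered: Lining was higher in 9 of 15 animals. Pi16+ cells, the class most common in healthy joints, had 236 ± 53.7 CPM of Pdpn (SD, n = 12).

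Thy1 separated the lining from the other fibroblast classes. Lining cells had 3.73 ± 3.00 CPM (SD, n = 17), below every other fibroblast class in every animal, with 0 to 17 UMIs per animal. A count of 0, as in 2 healthy animals and 1 FAP-sorted animal, allows up to 7.24 CPM there. Pi16+ cells had the most Thy1, 87.4 ± 27.4 CPM (SD, n = 12), above Il6+ cells in 10 of 12 animals and Mmp3+ cells in 9 of 10. Il6+ cells (52.4 ± 14.1, SD, n = 17) and Mmp3+ cells (49.1 ± 13.2, SD, n = 15) were not ordered, with Mmp3+ higher in 8 of 15 animals. Osteoblasts had 11.1 ± 6.68 CPM (SD, n = 15).

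Cd248 was highest in Pi16+ cells at 254 ± 48.2 CPM (SD, n = 12), above Il6+ cells in 12 of 12 animals, Mmp3+ cells in 10 of 10 and Lining cells in 11 of 12. Il6+ cells had 104 ± 57.5 CPM (SD, n = 17) and were above Mmp3+ cells (58.8 ± 35.9, SD, n = 15) in 14 of 15 animals. Lining cells had 72.3 ± 59.5 CPM (SD, n = 17), ranging from 7.99 to 183 between animals. Cd200+ cells (17.3 ± 9.74, SD, n = 17), Chondrocytes (20 ± 15.7, SD, n = 15) and Osteoblasts (9.25 ± 7.59, SD, n = 15) had the least.

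The growth factor receptors had different orders. Pdgfra was highest in Il6+ cells (324 ± 49.1 CPM, SD, n = 17) and Pi16+ cells (319 ± 56.5, SD, n = 12), which led each other in 6 animals each, and Il6+ cells were above Lining cells (198 ± 30.1, SD, n = 17) and Mmp3+ cells (210 ± 19.5, SD, n = 15) in every animal with both. Pdgfrb was highest in Cd200+ cells (98.7 ± 19.0 CPM, SD, n = 17), Chondrocytes (92.9 ± 27.1, SD, n = 15) and Osteoblasts (84.6 ± 19.0, SD, n = 15), which overlapped. Lining cells had the least Pdgfrb, 33.2 ± 13.9 CPM (SD, n = 17), below Cd200+ cells in 17 of 17 animals and below Il6+ cells in 16 of 17. The 6 classes other than Lining all held Pdgfrb at means of 56.2 CPM or more.

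**Figure D1:**
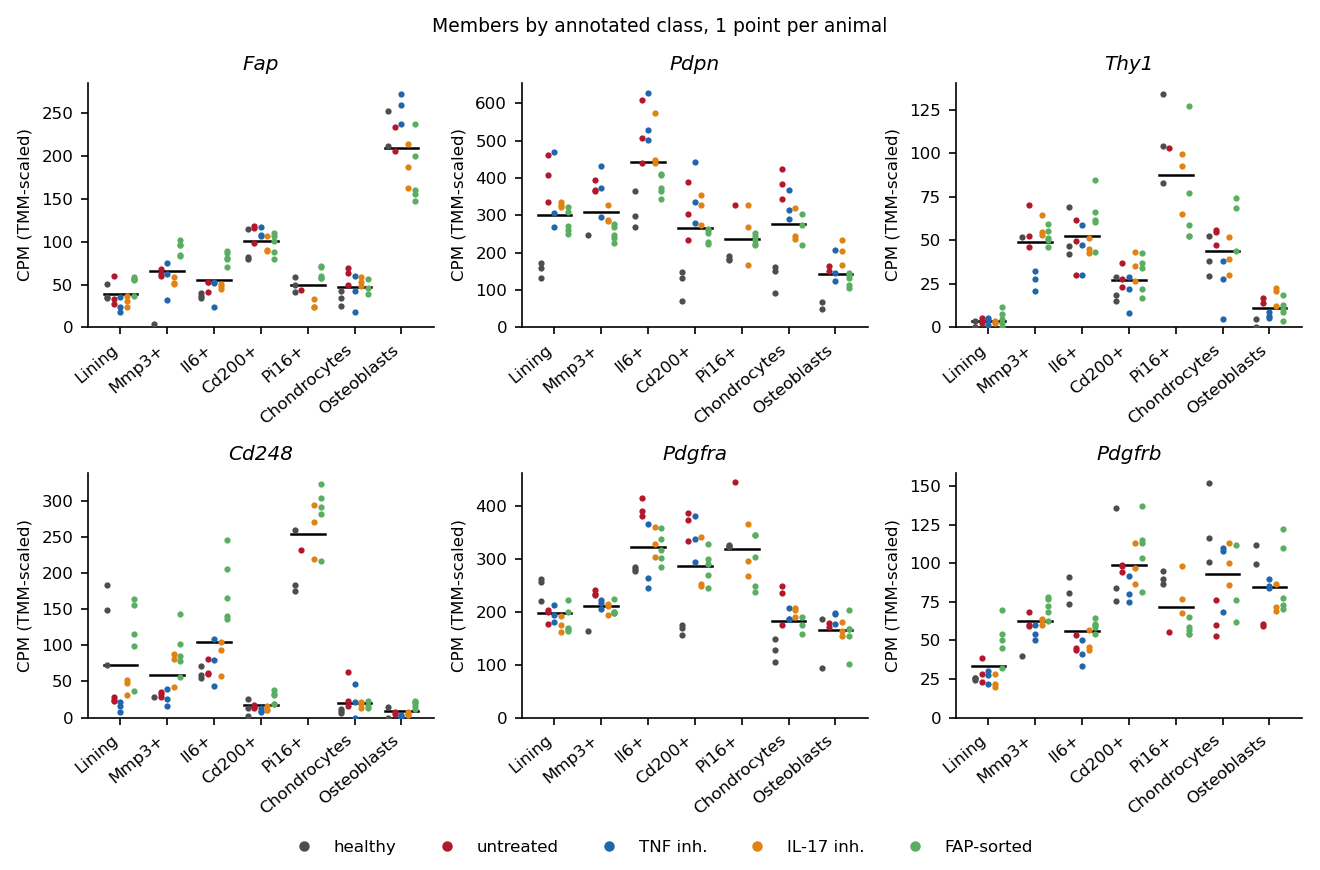
Level of each gene (CPM, linear axis) in the 7 annotation classes: each point is 1 animal with at least 20 cells of the class, coloured by condition, and the line is the class mean. Fap stands out in Osteoblasts (209 CPM), Pdpn in Il6+ cells (442 CPM) and Cd248 in Pi16+ cells (254 CPM), and Thy1 is near 0 in Lining cells (3.73 CPM).

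The share of cells with at least 1 UMI was compared after each cell was thinned to 3000 UMIs, which left out 513 shallower fibroblasts. Over 17 animals Pdpn was then found in 50.2 ± 6.84% of fibroblasts and Pdgfra in 47.9 ± 4.23% (SD), and the other genes in fewer: Pdgfrb in 16.2 ± 2.5%, Cd248 in 15.8 ± 7.33%, Fap in 15.1 ± 3.45% and Thy1 in 10.6 ± 3.35% (SD). Without thinning these shares were 83.5%, 85.5%, 47.8%, 36.3%, 45.3% and 30.2% at a median of 15328 UMIs, so a cell without a Fap UMI cannot be called FAP-negative. Barcodes with blood endothelial markers, which should lack these transcripts, gave the background. It holds free RNA and any doublets with fibroblasts, since fibroblast markers were not used to leave barcodes out. The 1013 barcodes, with a median of 10740 UMIs, had Fap in 1.71%, Pdpn in 7.60%, Thy1 in 2.14%, Cd248 in 1.07%, Pdgfra in 5.57% and Pdgfrb in 2.46% after thinning. Thy1 in Lining cells, 1.25% at a median of 20575 UMIs, lay below that background and is not read as expression. Fap was found in 47.6% of thinned Osteoblasts and Cd248 in 44.2% of thinned Pi16+ cells. Among 377 barcodes with mural markers, Pdgfrb was found in 49.6% and Thy1 in 21.8%, so mural RNA in a sample carries these genes too.

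The summed fibroblasts of arthritic animals held more Pdpn and less Thy1, Cd248 and Pdgfrb transcript than those of healthy animals. Of all 14348 genes tested, 40.2% passed the threshold of 0.05 in this comparison of 9 arthritic with 3 healthy animals within libraries, and of the 6 surface markers 4 did, 1 up and 3 down (20.1% of genes rose and 20.1% fell), a count to be read against that high background. Their median log2 fold change was -0.32, against 0.01 over all genes tested. Tests are edgeR quasi-likelihood tests on counts summed per animal, with Benjamini-Hochberg adjustment over all genes. No label says that animals came from separate litters or cages, and p-values measure the spread between these animals. Summed cells mix the level per cell with the shares of the classes, and fewer cells of a class and less RNA per cell cannot be told apart in the sum.

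Pdpn stood at 193, 216 and 197 CPM in healthy animals, listed by library throughout (untreated, TNF inhibition, IL-17 inhibition). In arthritic animals it stood at 462, 370 and 386 CPM without inhibitor, at 460, 321 and 390 under TNF inhibition and at 361, 324 and 323 under IL-17 inhibition. Every arthritic animal lay above every healthy one. The log2 fold change within libraries was 0.90 ± 0.11 (SE, edgeR adjusted p = 5.6e-05), and in the 3 libraries taken singly the ratio of means was 1.07, 0.85 and 0.77 on the log2 scale. Among untreated animals alone, where 28.7% of genes and 3 of the 6 markers were called, the log2 fold change was 1.02 ± 0.13 (SE, edgeR adjusted p = 7.4e-05), and it stayed between 0.81 and 1.28 and called under all alternatives tried.

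Cd248 stood at 156, 109 and 114 CPM in healthy animals. It stood at 43.5, 41.7 and 44.9 CPM in untreated arthritic animals, at 50, 29.7 and 23.5 under TNF inhibition and at 70.7, 75.9 and 53.9 under IL-17 inhibition. All 9 arthritic animals lay below all healthy ones. Cd248 fell by 1.46 ± 0.21 (SE) on the log2 scale within libraries (edgeR adjusted p = 0.00013) and by 1.54 ± 0.23 (SE) in untreated animals (edgeR adjusted p = 0.00028), the latter without a call when Pi16+ cells were left out (-0.64, edgeR adjusted p = 0.074). The ratio to the healthy animal of the same library was -1.85 (log2) without an inhibitor, -1.66 under TNF inhibition and -0.77 under IL-17 inhibition.

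Thy1 stood at 79.9, 62.9 and 53.6 CPM in healthy animals. It stood at 57.9, 34.4 and 45.8 CPM in untreated arthritic animals, at 34.3, 26.2 and 20.4 under TNF inhibition and at 45.2, 42.8 and 46.0 under IL-17 inhibition. Each arthritic animal lay below the healthy animal of its own library, although the untreated and healthy groups overlapped. Thy1 fell by 0.78 ± 0.18 (SE) within libraries (log2, edgeR adjusted p = 0.0046), a call that was lost without the healthy animal of the TNF-inhibited library (-0.54, edgeR adjusted p = 0.072). Untreated animals alone gave -0.52 ± 0.20 (SE, edgeR adjusted p = 0.076), which did not pass, and passed without untreated animal 1 (-0.70, edgeR adjusted p = 0.030), with raw library sizes (-0.73, edgeR adjusted p = 0.014) and without cells holding a Y-linked UMI (-0.63, edgeR adjusted p = 0.032).

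Pdgfrb stood at 84.0, 70.7 and 73.0 CPM in healthy animals and between 44.6 and 56 CPM in the 9 arthritic ones. The groups did not overlap. Pdgfrb fell by 0.51 ± 0.07 (SE) within libraries (log2, edgeR adjusted p = 9.6e-05), and this call was lost when cells were kept only where the annotated hashtag had the highest raw count (-0.19, edgeR adjusted p = 0.19). Untreated animals alone gave -0.48 for Pdgfrb (edgeR adjusted p = 0.0015), which was lost under the same hashtag rule (-0.16, edgeR adjusted p = 0.39) and without Pi16+ cells (-0.28, edgeR adjusted p = 0.088). Pdgfra stood at 270, 273 and 270 CPM in healthy animals, at 280, 293 and 275 in untreated arthritic animals and at 222 to 245 in the 6 inhibited ones, and was not called (-0.12, edgeR adjusted p = 0.17), nor was it in untreated animals alone (0.07, edgeR adjusted p = 0.52), where it passed without Pi16+ cells (0.27, edgeR adjusted p = 0.021). With raw library sizes in place of TMM scaling, an alternative added after seeing the data, Pdgfra was called (-0.34, edgeR adjusted p = 0.0015), and it was called without the healthy animal of the untreated library (-0.21, edgeR adjusted p = 0.044).

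Fap, the protease that the sort also targeted, was not called. It stood at 49.2, 49.3 and 39.1 CPM in healthy animals, at 57.4, 56.4 and 56.9 in untreated arthritic animals, at 58.1, 65.5 and 36.3 under TNF inhibition and at 53.9, 49.4 and 51.1 under IL-17 inhibition. Of the 9 arthritic animals, 8 lay above the healthy animal of their library and 1, TNF-inhibited animal 3, below. The log2 fold change was 0.24 within libraries (edgeR adjusted p = 0.20) and 0.31 ± 0.17 (SE) in untreated animals (edgeR adjusted p = 0.19). Without TNF-inhibited animal 3 it was 0.31 within libraries with an edgeR adjusted p of 0.0017, so the absence of a call rests on that animal.

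**Figure D2:**
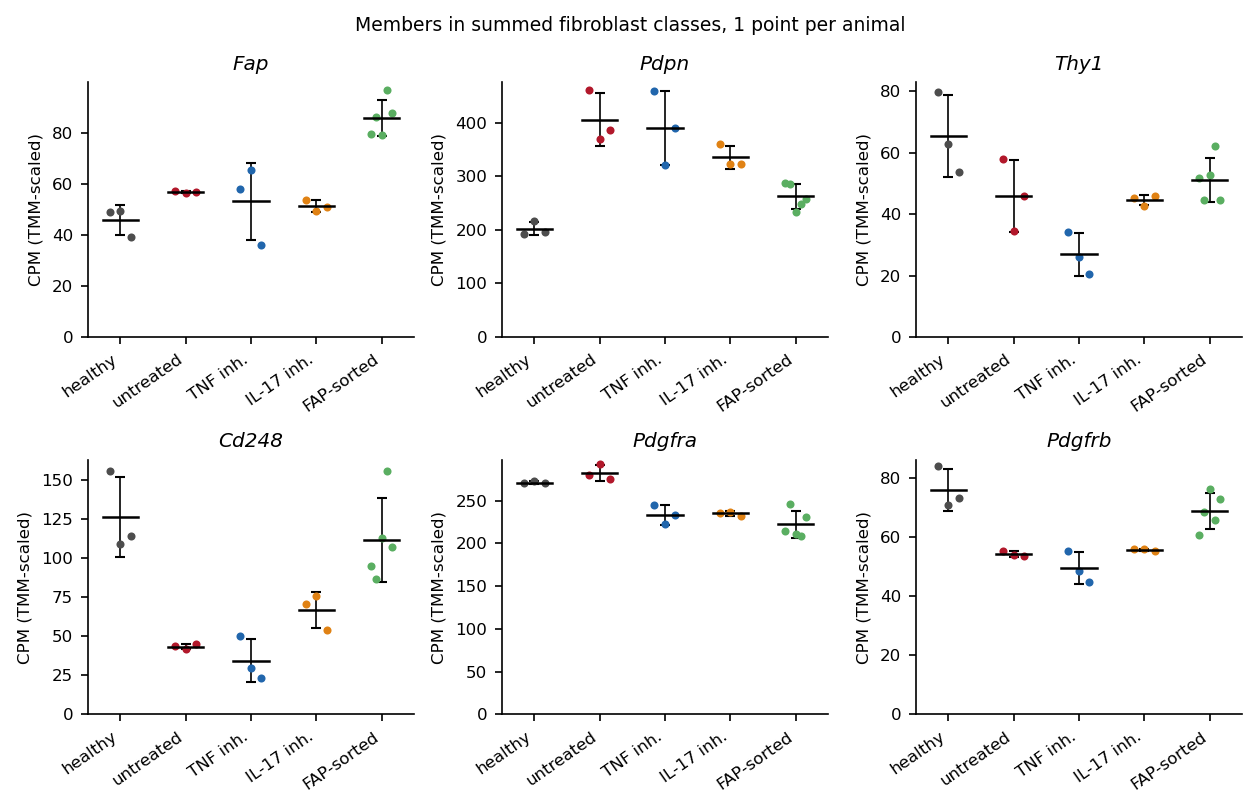
Level of each gene (CPM, linear axis) in the summed fibroblasts of each animal, by condition: points are animals, lines are means and bars are SD. Pdpn is higher in all arthritic animals than in healthy ones (193 to 216 CPM), Cd248 is lower in unsorted arthritic animals than in healthy ones, and Fap is highest in FAP-sorted animals (79.4 to 96.9 CPM).

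Without healthy cells that held a Y-linked UMI, the same 4 genes were called within libraries, with log2 fold changes of 1.04 for Pdpn, -0.90 for Thy1, -1.53 for Cd248 and -0.54 for Pdgfrb. This rule can remove only part of any wrongly assigned cells. Each unsorted library also held female arthritic animals, whose cells it cannot find. In the male unsorted animals a Y-linked UMI was found in 57.8% to 86.5% of fibroblasts. RNA of other cells moved with the healthy animals: keratinocyte markers summed to 139 to 362 CPM in their fibroblasts against 23.6 to 31.2 in untreated arthritic animals, and mural markers to 85.8 to 158 against 55.7 to 59.1, with none of the 6 genes of either list at 0. Osteoblast markers summed to 398 to 602 CPM in healthy animals against 54.4 to 169, and Schwann markers to 54.7 to 61.7 against 16.3 to 20.3. Leukocyte markers moved the other way, 9.84 to 16.1 CPM against 33.0 to 37.8, with 1 of 6 genes at 0 in both groups. Mural barcodes themselves held 242 CPM of Pdgfrb and 117 CPM of Thy1, and annotated Osteoblasts 209 CPM of Fap and 84.6 CPM of Pdgfrb. The part of these cells in the falls of Thy1 and Pdgfrb, and in the level of Fap, was not tested.

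The mix of classes differed greatly between healthy and arthritic joints and the calls of Thy1 and Cd248 did not hold without the Pi16+ class. Pi16+ cells made up 43.0 ± 1.16% of healthy fibroblasts (SD, n = 3), 1.2 ± 0.24% of untreated arthritic ones (SD, n = 3), 0.216 ± 0.150% under TNF inhibition (SD, n = 3) and 2.49 ± 1.27% under IL-17 inhibition (SD, n = 3). They held 73.4% of the Thy1 UMIs and 73.4% of the Cd248 UMIs of healthy fibroblasts, 53.7% of Pdgfra, 53.0% of Pdgfrb, 49.2% of Fap and 41.0% of Pdpn. Mmp3+ cells made up 3.70 ± 1.90% of healthy (SD, n = 3) and 38.8 ± 3.70% of untreated arthritic fibroblasts (SD, n = 3), and in the latter held 63.5% of Thy1, 58.7% of Pdgfrb, 58.3% of Fap, 49.0% of Pdpn, 43.2% of Pdgfra and 39.6% of Cd248. With Pi16+ cells left out of every animal, Pdpn was still higher in arthritic animals (log2 fold change 0.77, edgeR adjusted p = 0.00034) and Pdgfrb lower (-0.31, edgeR adjusted p = 0.011). Cd248 was then no longer called (-0.51, edgeR adjusted p = 0.082), and Thy1 had the opposite sign without passing (0.21, edgeR adjusted p = 0.45).

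**Figure D3:**
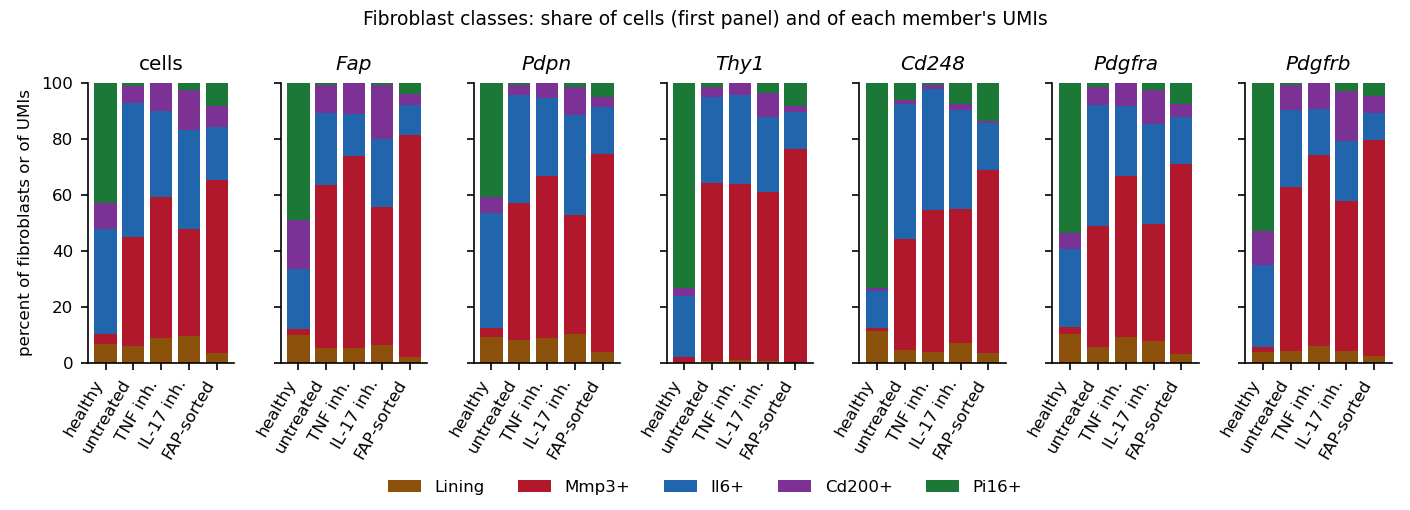
Stacked bars for each condition of the mean share of fibroblasts in each class and of the share of each gene's UMIs held by that class (percent). Pi16+ cells are 43.0% of healthy fibroblasts and hold 73.4% of healthy Thy1 and Cd248 UMIs, and Mmp3+ cells hold 79.3% of Fap UMIs in FAP-sorted animals.

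Within classes, where the mix no longer enters, Pdpn rose in 5 of the 6 classes that could be fitted. In Lining cells, the fibroblasts of the joint surface, it stood at 172, 158 and 133 CPM in healthy animals and at 270 to 470 CPM in the 9 arthritic ones, without overlap. The log2 fold change was 1.25 ± 0.17 (SE, edgeR adjusted p = 9.4e-05), in a class where 18.7% of genes were called. It rose by 1.45 ± 0.22 (SE) in Cd200+ cells (edgeR adjusted p = 0.00051, 7.17% of genes called), from 149, 132 and 71.7 CPM to 235 to 442. It rose by 0.73 ± 0.13 (SE) in Il6+ cells (edgeR adjusted p = 0.0021, 12.9% of genes called), from 270, 366 and 299 CPM to 439 to 627. In Chondrocytes the change was 1.24 ± 0.21 (SE, edgeR adjusted p = 0.0014, 16% of genes called) and in Osteoblasts 1.63 ± 0.30 (SE, edgeR adjusted p = 0.0068, 4.83% of genes called, 6 arthritic against 2 healthy animals). Leaving out each animal in turn kept all 5 calls. In Pi16+ cells, with 4 arthritic and 2 healthy animals in the fit and 1.63% of genes called, Pdpn did not pass (0.63 ± 0.26 SE, edgeR adjusted p = 0.45). Mmp3+ cells could not be fitted against healthy animals, of which only 1 had 20 such cells.

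Cd248 fell in Lining cells of arthritic animals. Lining cells of healthy animals held it at 149, 73.3 and 183 CPM (168, 57 and 76 UMIs in 49, 42 and 23 cells). Those of arthritic animals held 28.5, 23.5 and 24.3 CPM without inhibitor, 21.6, 7.99 and 16.4 under TNF inhibition and 51.8, 47.6 and 30.6 under IL-17 inhibition, all below the healthy animals. Cd248 fell by 2.32 ± 0.21 (SE) on the log2 scale (edgeR adjusted p = 2.4e-06), by at least 2.18 with any 1 animal left out and by 2.53 without cells holding a Y-linked UMI. Thy1, which Pi16+ cells of the same healthy animals held at 134, 104 and 83.0 CPM beside 259, 184 and 175 CPM of Cd248, stood at 0, 3.86 and 0 CPM in these healthy Lining cells. In the other classes Cd248 did not pass: the log2 fold change was 0.29 in Il6+ cells (edgeR adjusted p = 0.48), 0.32 in Pi16+ cells (edgeR adjusted p = 0.79), -0.20 in Cd200+ cells (edgeR adjusted p = 0.83) and 1.51 ± 0.61 (SE) in Chondrocytes (edgeR adjusted p = 0.11). The difference between classes in this change was not tested.

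The receptors were called in Cd200+, Lining and Il6+ cells and in Chondrocytes, and differences between classes were not tested. Pdgfra rose in Cd200+ cells, from 176, 170 and 157 CPM in healthy animals to between 249 and 388 CPM in arthritic ones, by 0.95 ± 0.14 (SE) on the log2 scale (edgeR adjusted p = 0.00051). It rose in Chondrocytes by 0.68 ± 0.16 (SE, edgeR adjusted p = 0.0081), a call lost without the healthy animal of the untreated library (edgeR adjusted p = 0.12). In Lining cells it fell by 0.35 ± 0.11 (SE, edgeR adjusted p = 0.036), but this call was lost in 7 of 12 fits with 1 animal left out. Pdgfrb fell in Il6+ cells, from 91.0, 73.5 and 80.6 CPM to between 33.1 and 56.6, by 0.84 ± 0.13 (SE, edgeR adjusted p = 0.00066), and this call held without each animal in turn. Its fall in Chondrocytes (0.58 ± 0.18 SE, edgeR adjusted p = 0.039) was lost in 7 of 12 such fits. Within libraries neither Fap nor Thy1 passed in any class: Thy1 differed by -0.21 in Il6+ cells (edgeR adjusted p = 0.60) and by -0.09 in Pi16+ cells (edgeR adjusted p = 0.98).

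Each treatment was also compared with healthy animals class by class. The 3 comparisons share those healthy animals, so their values are given side by side (untreated, TNF inhibition, IL-17 inhibition), as log2 fold changes from edgeR's quasi-likelihood test with Benjamini-Hochberg adjustment. In Lining cells 13.2%, 20.9% and 9.91% of genes were called. Cd248 there differed by -2.37 ± 0.33, -3.18 ± 0.36 and -1.60 ± 0.31 (SE; edgeR adjusted p = 0.00017, 1e-05 and 0.0029), and Pdpn by 1.39, 1.21 and 1.08 (edgeR adjusted p at most 0.0022). Pdgfra in Lining cells was called under IL-17 inhibition alone, at -0.47 ± 0.13 (SE, edgeR adjusted p = 0.033).

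In Il6+ cells 6.91%, 11.4% and 9.9% of genes were called, Pdpn rose by 0.73, 0.82 and 0.63 (edgeR adjusted p at most 0.024), and Pdgfrb fell by 0.79, 0.98 and 0.78 (edgeR adjusted p at most 0.0082). Pdgfra was called there in untreated animals, at 0.49 ± 0.14 (SE, edgeR adjusted p = 0.045). In Cd200+ cells, where 4.27%, 8.01% and 6.04% of genes were called, Pdpn rose by 1.36, 1.54 and 1.41 (edgeR adjusted p at most 0.0054). Pdgfra rose in the same cells by 1.13, 0.98 and 0.72 (edgeR adjusted p at most 0.014).

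In Chondrocytes, with 12.9%, 8.65% and 11.3% of genes called, Pdpn rose by 1.5, 1.28 and 0.97 (edgeR adjusted p at most 0.0077). Pdgfra rose in Chondrocytes of untreated (0.79 ± 0.18 SE) and IL-17-inhibited animals (0.65 ± 0.18 SE, edgeR adjusted p at most 0.026). Pdgfrb fell by 0.97 in those of untreated animals (edgeR adjusted p = 0.0084), and Fap rose by 0.82 ± 0.25 (SE, edgeR adjusted p = 0.04). In Osteoblasts, with 5.54%, 4.72% and 5.96% of genes called and 2 healthy animals with enough cells, Pdpn rose by 1.43, 1.45 and 1.78 (edgeR adjusted p at most 0.011). Pdgfrb fell by 0.83 in Osteoblasts of untreated animals (edgeR adjusted p = 0.03). Pdpn was thus the marker called in all 5 of these classes under each treatment, and whether the treatments differ in a class was tested only where stated. In Pi16+ cells only IL-17-inhibited animals could be compared with healthy ones (n = 3 each). There 2.92% of genes and 0 of the 6 markers were called, so Pdpn did not pass in that class.

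**Figure D4:**
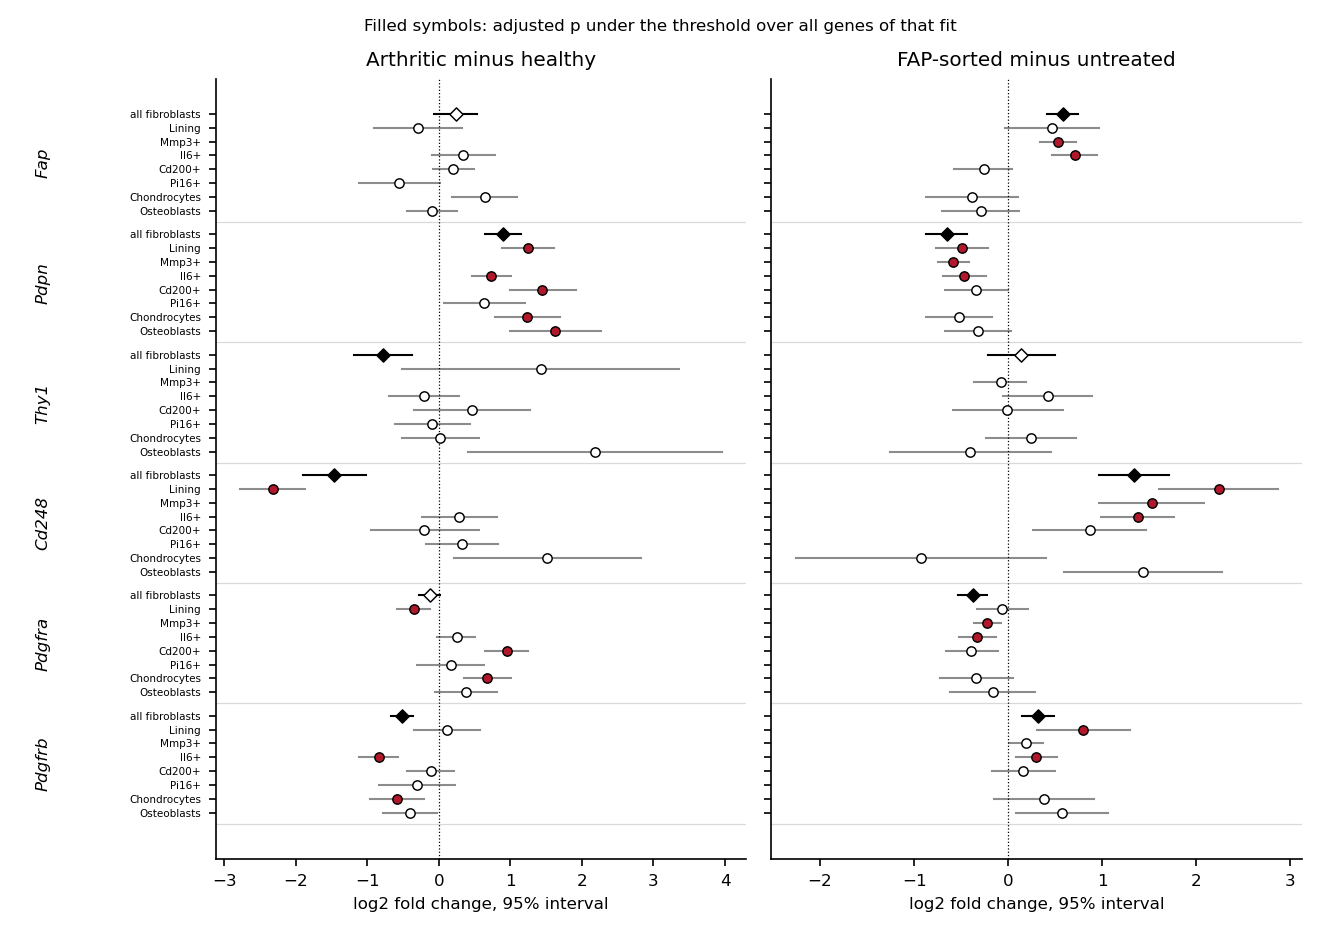
Log2 fold changes with 95% intervals by class, on the left for arthritic minus healthy animals within libraries and on the right for FAP-sorted minus untreated animals: circles are classes, diamonds are all fibroblasts, and filled symbols passed the adjusted threshold of 0.05. On the left Cd248 is lowest in Lining cells (-2.32) and Pdpn is above 0 in all classes fitted, and Mmp3+ cells are missing there because too few healthy cells were available.

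Against untreated arthritic animals, Thy1 and Pdgfra fell under TNF inhibition and Pdgfra fell under IL-17 inhibition, while Pdpn, Fap, Cd248 and Pdgfrb were called under neither. The 3 comparisons share animals and their values are given side by side. TNF inhibition changed 5.55% of genes and 2 of the 6 markers: Thy1, at 57.9, 34.4 and 45.8 CPM untreated and 34.3, 26.2 and 20.4 under TNF inhibition, fell by 0.76 ± 0.20 (SE) on the log2 scale (edgeR adjusted p = 0.046). The highest treated animal lay just below the lowest untreated one. Pdgfra fell by 0.29 ± 0.07 (SE) under TNF inhibition (edgeR adjusted p = 0.035), from 275 to 293 CPM to 222 to 245 CPM. The other log2 fold changes were -0.10 for Fap, -0.08 for Pdpn, -0.33 for Cd248 and -0.14 for Pdgfrb (edgeR adjusted p = 0.76, 0.77, 0.40 and 0.37).

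IL-17 inhibition changed 8.45% of genes and 1 of the 6 markers, Pdgfra, which fell by 0.27 ± 0.07 (SE, edgeR adjusted p = 0.036) to 236, 237 and 232 CPM. Cd248 was higher in all 3 IL-17-inhibited animals than in the untreated ones (0.62 ± 0.23 SE) without passing (edgeR adjusted p = 0.11), and the other log2 fold changes were -0.27 for Pdpn, -0.15 for Fap, -0.03 for Thy1 and 0.04 for Pdgfrb (edgeR adjusted p = 0.20, 0.63, 0.94 and 0.83). IL-17-inhibited animals had more Thy1 (0.73 ± 0.20 SE, edgeR adjusted p = 0.044) and more Cd248 (0.96 ± 0.23 SE, edgeR adjusted p = 0.023) than TNF-inhibited ones, in a comparison where 7.6% of genes were called, and their groups did not overlap in either gene. The other differences between the inhibitors were -0.05 for Fap, -0.20 for Pdpn, 0.03 for Pdgfra and 0.18 for Pdgfrb (edgeR adjusted p = 0.91, 0.39, 0.88 and 0.25). Each of these calls was lost with some animals left out. Thy1 under TNF inhibition was lost without untreated animal 1 or 3 or TNF-inhibited animal 2 or 3 (edgeR adjusted p = 0.091 to 0.17), Pdgfra under TNF inhibition without any untreated animal or TNF-inhibited animal 2 (0.087 to 0.12), and Pdgfra under IL-17 inhibition without any 1 of the 6 animals (0.081 to 0.14). Between the inhibitors Thy1 was lost in 5 of 6 such fits (0.094 to 0.14) and Cd248 in 4 of 6 (0.052 to 0.10). By Y-linked and Xist UMIs, TNF-inhibited animals 1 and 2, untreated animal 2 and IL-17-inhibited animal 1 were male and the other unsorted animals female. Sex was thus not balanced between these groups. With a sex term Thy1 lost its call both under TNF inhibition and between the inhibitors. A sex term was not used in the fits by class. With library as a term, which rests each treatment on its 1 healthy animal, 0 of 14348 genes were called in these 3 comparisons, against 797, 1212 and 1090. Mural markers summed to 55.7 to 59.1 CPM untreated, 39.4 to 49.0 under TNF inhibition and 64.3 to 97.0 under IL-17 inhibition, with none of 6 genes at 0, and muscle markers to 193 to 271, 78.7 to 110 and 56.5 to 97.5. Their part in the changes of Thy1, Cd248 and Pdgfra was not tested.

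Against the healthy animals, which these comparisons share, 5 of the 6 markers were called in TNF-inhibited animals (38.9% of genes called) and 5 in IL-17-inhibited ones (35.6%), Fap being the exception in each (0.21 and 0.17, edgeR adjusted p = 0.35 and 0.48; 0.43 and 0.0043 without TNF-inhibited animal 3). Pdpn stayed 0.94 and 0.74 above the healthy level on the log2 scale (edgeR adjusted p = 9.3e-05 and 0.00074), Cd248 -1.87 and -0.92 (4.6e-05 and 0.0074), Thy1 -1.28 and -0.55 (0.00035 and 0.049), Pdgfrb -0.63 and -0.44 (0.00016 and 0.0023) and Pdgfra -0.23 and -0.20 (0.023 and 0.044). Without Pi16+ cells Thy1 was at -0.29 under TNF inhibition (edgeR adjusted p = 0.32) and, with the opposite sign, at 0.41 under IL-17 inhibition (edgeR adjusted p = 0.16), and Pdgfra was at -0.01 and 0.01 (edgeR adjusted p = 0.93 and 0.97). Cd248 was then called under TNF inhibition (-0.89, edgeR adjusted p = 0.013) and not under IL-17 inhibition (-0.01, edgeR adjusted p = 0.99). Pdgfrb was called at -0.42 under TNF inhibition (edgeR adjusted p = 0.011) and not at -0.25 under IL-17 inhibition (edgeR adjusted p = 0.11). Pdpn was called under both (0.80 and 0.61, edgeR adjusted p = 0.00073 and 0.0055). With the raw-count hashtag rule neither Pdgfra nor Pdgfrb was called under either inhibitor (edgeR adjusted p = 0.067 to 0.82), nor Thy1 under IL-17 inhibition (-0.41, edgeR adjusted p = 0.22). The Pdgfra calls were also lost without any 1 healthy animal, any 1 IL-17-inhibited animal or TNF-inhibited animal 2 (edgeR adjusted p = 0.055 to 0.13). Thy1 under IL-17 inhibition was lost without any 1 IL-17-inhibited animal or the healthy animal of the untreated or TNF-inhibited library (edgeR adjusted p = 0.085 to 0.22). That call was also lost with a sex term.

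By class, Thy1 fell under TNF inhibition in Mmp3+ cells and was not called in Il6+ cells. Thy1 stood at 70.1, 46.3 and 52.4 CPM in Mmp3+ cells of untreated animals, at 32.4, 28.0 and 20.8 under TNF inhibition (615, 599 and 115 UMIs) and at 64.4, 53.0 and 54.8 under IL-17 inhibition. The TNF-inhibited animals lay below all others. Thy1 fell by 1.00 ± 0.17 (SE) against untreated animals (edgeR adjusted p = 0.016, 4.88% of genes called), a call lost without untreated animal 1 or TNF-inhibited animal 2 (adjusted p up to 0.053), and was 1.03 ± 0.17 (SE) higher under IL-17 than under TNF inhibition (edgeR adjusted p = 0.0048, 10.1% of genes called), kept in 6 of 6. In Il6+ cells Thy1 stood at 61.7, 29.9 and 49.5 CPM untreated and at 58.7, 47.5 and 29.9 under TNF inhibition, groups that overlapped (-0.03 ± 0.25 SE, edgeR adjusted p = 0.99, 0.254% of genes called). The difference of the change between Mmp3+ and Il6+ cells, tested with limma across all genes, was -1.01 ± 0.17 (SE, limma adjusted p = 0.048, 0.0967% of genes called) for TNF-inhibited against untreated and 1.01 ± 0.17 (SE, limma adjusted p = 0.023, 0.629% of genes called) for IL-17-inhibited against TNF-inhibited animals. These share the TNF-inhibited animals, and with 1 animal left out the first was lost in 5 of 6 fits (adjusted p up to 0.17) and the second in 4 of 6 (up to 0.10).

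Cd248 in Mmp3+ cells stood at 28.1, 35.1 and 32.8 CPM untreated, at 40.1, 25.4 and 16.1 under TNF inhibition and at 87.4, 81.6 and 42.7 under IL-17 inhibition. The IL-17-inhibited animals lay above all others. Cd248 rose by 1.11 ± 0.30 (SE) against untreated animals (edgeR adjusted p = 0.040, 11% of genes called), kept in only 1 of 6 fits with 1 animal left out, and was 1.30 ± 0.30 (SE) above TNF-inhibited animals (edgeR adjusted p = 0.022), kept in 3 of 6. In Lining cells it was 1.59 ± 0.35 (SE) higher under IL-17 than under TNF inhibition (edgeR adjusted p = 0.013, 6.65% of genes called), lost without TNF-inhibited animal 2 or IL-17-inhibited animal 1. The Mmp3+ minus Il6+ difference for Cd248 between the inhibitors, 1.21 ± 0.31 (SE), did not pass (limma adjusted p = 0.11).

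**Figure D5:**
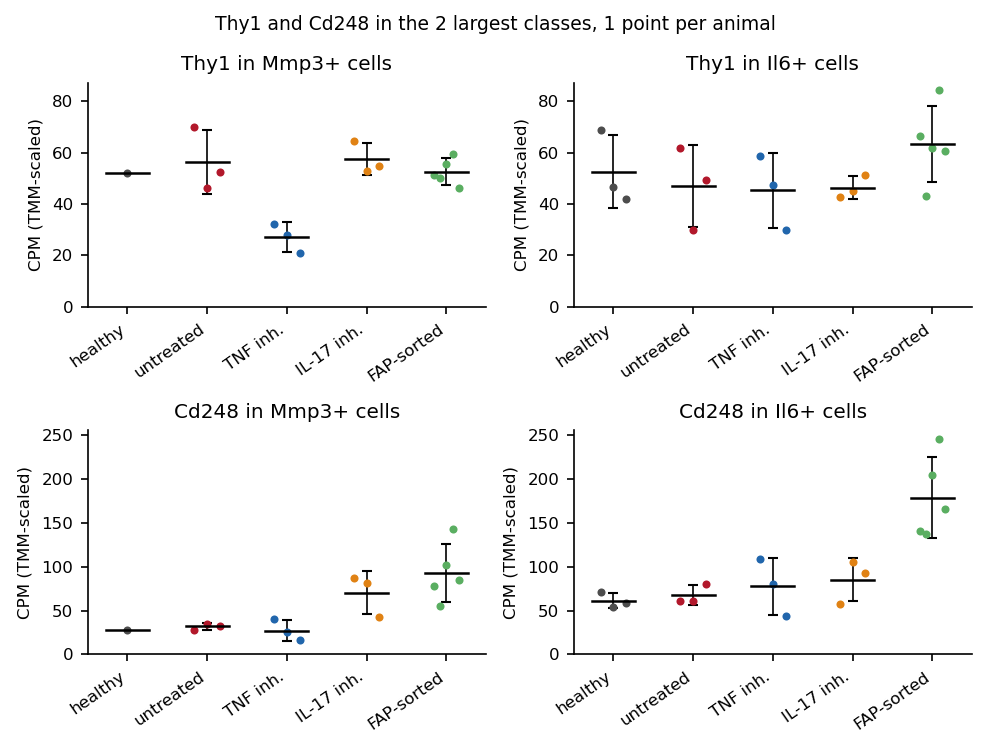
Thy1 and Cd248 (CPM, linear axis) in Mmp3+ and in Il6+ cells of each animal, by condition: points are animals, lines are means and bars are SD. Thy1 in Mmp3+ cells of TNF-inhibited animals (20.8 to 32.4 CPM) lies below all other conditions, and Cd248 in Il6+ cells is highest in FAP-sorted animals (137 to 246 CPM).

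Sorting for FAP and Pdpn protein gave fibroblasts with more Fap and less Pdpn transcript than unsorted fibroblasts of untreated arthritic animals. Both proteins were used to gate the cells, so their transcripts are a check of the gate and not a result of it. In this comparison 42.9% of 13418 genes and 5 of the 6 markers were called, 3 up and 2 down (21.3% of genes rose and 21.5% fell), and the sort, the library, the Cell Ranger version and the lower stress score cannot be told apart. Fap stood at 79.6, 86.2, 79.4, 96.9 and 88.1 CPM in FAP-sorted against 57.4, 56.4 and 56.9 in untreated animals, without overlap (0.58 ± 0.07 SE, edgeR adjusted p = 0.00035), which is a ratio of means of 1.51. Pdpn stood at 288, 286, 233, 249 and 257 CPM against 462, 370 and 386, also without overlap (-0.65 ± 0.10 SE, edgeR adjusted p = 0.00065). The transcript of 1 gated protein was thus higher in the sorted cells and that of the other lower.

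Of the markers that the sort did not use, Cd248 differed most. It stood at 95.2, 86.9, 113, 156 and 107 CPM in FAP-sorted animals against 43.5, 41.7 and 44.9 in untreated ones, a ratio of means of 2.57, and the groups did not overlap. Cd248 rose by 1.34 ± 0.17 (SE) on the log2 scale (edgeR adjusted p = 0.00031) and stayed between 1.15 and 1.42 under all alternatives tried. Pdgfrb stood at 60.5, 68.5, 76.1, 65.7 and 72.7 CPM against 55.3, 53.8 and 53.4 (0.32 ± 0.08 SE, edgeR adjusted p = 0.0077), and Pdgfra at 214, 246, 211, 208 and 231 against 280, 293 and 275 (-0.37 ± 0.07 SE, edgeR adjusted p = 0.0023), each without overlap. Thy1, at 51.9, 44.7, 52.8, 62.1 and 44.6 CPM against 57.9, 34.4 and 45.8, overlapped and was not called (0.14 ± 0.16 SE, edgeR adjusted p = 0.49). The calls of all 6 genes, 5 made and 1 not, were the same under each alternative.

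The sorted cells also had another mix of classes. Mmp3+ cells made up 61.5 ± 9.93% of FAP-sorted fibroblasts (SD, n = 5) against 38.8 ± 3.70% of untreated ones (SD, n = 3), Il6+ cells 19.2 ± 5.46% (SD, n = 5) against 47.8 ± 4.64% (SD, n = 3), Lining cells 3.58 ± 0.669% (SD, n = 5) against 6.14 ± 0.480% (SD, n = 3) and Pi16+ cells 8.52 ± 2.59% (SD, n = 5) against 1.2 ± 0.24% (SD, n = 3). Mmp3+ cells held 79.3% of the Fap UMIs, 76.9% of Pdgfrb, 75.9% of Thy1, 70.6% of Pdpn, 68.1% of Pdgfra and 65.2% of Cd248 of FAP-sorted fibroblasts, and Pi16+ cells 13.8% of Cd248. RNA of some other cell types was lower: muscle markers summed to 2.58 to 3.87 CPM against 193 to 271, blood endothelial markers to 1.75 to 3.01 against 7.22 to 9.24, and mural markers to 39.9 to 47.7 against 55.7 to 59.1. Leukocyte markers were higher, at 58.9 to 93.5 against 33.0 to 37.8, and so were chondrocyte markers, at 17.5 to 37.1 against 3.53 to 5.25. Osteoblast markers overlapped, at 73.2 to 177 against 54.4 to 169. The part of such RNA in the differences of the surface markers was not tested.

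Cd248 was also higher in FAP-sorted animals within Mmp3+, Il6+ and Lining cells. It rose in Mmp3+ cells, from 28.1, 35.1 and 32.8 CPM to 78.5, 55.7, 102, 143 and 85.2 (1.53 ± 0.25 SE, edgeR adjusted p = 0.0012, 37.7% of genes called). It rose in Il6+ cells, from 61, 60.6 and 80.6 CPM to 141, 137, 205, 246 and 166 (1.38 ± 0.18 SE, edgeR adjusted p = 0.00029, 25.6% of genes called). It rose in Lining cells, from 28.5, 23.5 and 24.3 CPM to 115, 36.1, 164, 156 and 99.7 (2.24 ± 0.30 SE, edgeR adjusted p = 0.00053, 8.44% of genes called). These 3 calls held with each animal left out, and the groups overlapped in none of the 3 classes. In the other classes that could be fitted Cd248 was not called. Its mean CPM was 28.3 against 15.3 in Cd200+ cells, 17.9 against 6.13 in Osteoblasts and, the other way, 17.3 against 33.8 in Chondrocytes. Of all genes, 2.85%, 0.681% and 1.21% were called there. Pi16+ cells could not be fitted, since only 1 untreated animal had enough of them. The Lining cells of FAP-sorted animals (32 to 48 per animal) held Cd248 at 36.1 to 164 CPM beside 73.3 to 183 in healthy Lining cells, values from different libraries whose difference was not tested.

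Fap rose in Mmp3+ cells by 0.53 ± 0.08 (SE, edgeR adjusted p = 0.00095) and in Il6+ cells by 0.71 ± 0.11 (SE, edgeR adjusted p = 0.00088), while in Lining cells (0.47 ± 0.23 SE, edgeR adjusted p = 0.23), Cd200+ cells (-0.26, edgeR adjusted p = 0.31, 2.85% of genes called) and Osteoblasts (-0.29, edgeR adjusted p = 0.54, 0.681% of genes called), the class with the most Fap, it did not pass. Pdpn fell by 0.59 ± 0.07 (SE) in Mmp3+ cells (edgeR adjusted p = 0.00036), by 0.47 in Il6+ cells (edgeR adjusted p = 0.0068) and by 0.49 ± 0.13 (SE) in Lining cells (edgeR adjusted p = 0.032), the last lost in 5 of 8 fits with 1 animal left out. Pdgfra fell by 0.22 in Mmp3+ cells (edgeR adjusted p = 0.017, lost without untreated animal 2) and by 0.33 in Il6+ cells (edgeR adjusted p = 0.018, lost without untreated animal 2 or 3). Pdgfrb rose by 0.80 ± 0.23 (SE) in Lining cells (edgeR adjusted p = 0.044) and by 0.30 ± 0.10 (SE) in Il6+ cells (edgeR adjusted p = 0.043), each kept in only 2 of 8 fits with 1 animal left out, and by 0.19 in Mmp3+ cells, which did not pass (edgeR adjusted p = 0.089). Thy1 passed in neither Mmp3+ cells (-0.08, edgeR adjusted p = 0.63) nor Il6+ cells (0.42, edgeR adjusted p = 0.17), and was too low in Lining cells to be fitted.

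FAP and THY1 are used together to define fibroblast subsets of the joint, and the co-detection of their transcripts was counted in thinned cells. Of fibroblasts with a Fap UMI, 20%, 23.2% and 15.9% also had a Thy1 UMI in healthy animals. The share was 16.7%, 8.86% and 9.33% in untreated, 6.88%, 6.25% and 6.49% in TNF-inhibited and 10.5%, 8.12% and 11.2% in IL-17-inhibited animals, and 11.5%, 11.2%, 9.59%, 12% and 10.9% in FAP-sorted ones. Arthritic animals lay 10.3 percentage points below healthy ones within libraries (two-sided exact permutation test over 64 arrangements, p = 0.0156, the smallest it can give, 0.0312 adjusted over 2 tests). Without Pi16+ cells the difference was 0.453 points (exact permutation p = 0.812), so the difference was not seen outside that class. Without thinning it was -5.88 points (exact permutation p = 0.156), and thinned to 6000 UMIs it was -17 points (exact permutation p = 0.0156). Without any 1 healthy animal it was -12.5 to -7.18 points, with an exact permutation p of 0.0625, the smallest that 2 libraries allow. FAP-sorted animals differed from untreated ones by -0.566 points (exact permutation p = 0.875, the smallest possible being 0.0179). Among fibroblasts without a Fap UMI, the mean share with Thy1 was lower in arthritic animals too. It was 14.9% in healthy, 9.3% in untreated, 6.21% in TNF-inhibited and 9.11% in IL-17-inhibited animals. The lower share was thus not particular to cells with a Fap UMI, and whether it differed from that of cells without was not tested.

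Co-detection was counted for Fap with Thy1, Pdpn with Thy1, Fap with Pdpn, Thy1 with Cd248 and Pdgfra with Pdgfrb, and not for other pairs. Among the pairs counted, Thy1 and Cd248 went together most. Cd248 was found in 22.7 ± 9.87% of fibroblasts with a Thy1 UMI and in 14.9 ± 6.77% of those without (SD, n = 17), higher in 16 of 17 animals. Within Pi16+ cells the shares were 57.2% and 37.5% (higher in 7 of 7 animals), within Mmp3+ cells 15.8% and 11.1% (13 of 14) and within Il6+ cells 21.8% and 16.1% (14 of 17). Within Cd200+ cells they were 6.38% and 4.1% (higher in 4 of 7). Pdgfrb was found in 17.4 ± 2.54% of cells with Pdgfra and 15 ± 2.96% of those without (SD, n = 17), higher in 15 of 17 animals. Within classes this was less regular. The shares were 17.8% and 14.8% in Mmp3+ cells (higher in 10 of 14 animals), 14.9% and 13.3% in Il6+ cells (11 of 17) and 26.6% and 23.4% in Cd200+ cells (10 of 17). They were 20.5% and 17.6% in Pi16+ cells (7 of 11) and 8.32% and 9.27% in Lining cells (9 of 16). For Fap and Pdpn, the sorted pair, the share was a little lower in cells with Fap in most animals. Over all classes Pdpn was found in 47.2 ± 7.41% of cells with a Fap UMI and in 50.7 ± 6.90% of those without (SD, n = 17), higher in 4 of 17 animals. By class the shares were 49.1% and 52.3% in Mmp3+ cells (higher in 4 of 14 animals), 56.2% and 55.0% in Il6+ cells (8 of 17), 41.9% and 45.7% in Cd200+ cells (6 of 16), 42.7% and 44.4% in Pi16+ cells (2 of 7) and 52.4% and 52.5% in Lining cells (1 of 4). By condition they were 35.8% and 39.6% in healthy (higher in 1 of 3 animals), 51.8% and 58.2% in untreated (0 of 3) and 49.6% and 54.5% in TNF-inhibited fibroblasts (0 of 3). In IL-17-inhibited fibroblasts they were 54.2% and 53.6% (higher in 2 of 3 animals), and in FAP-sorted ones 45.8% and 48.9% (1 of 5). These shares are descriptions, and doublets of hyper-loaded wells can add to any of them.

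Partners and relatives of the 6 proteins were counted from lists. In the comparison of arthritic with healthy animals within libraries, 1 of 12 genes for PDGF ligands and signalling rose and 4 fell (median log2 fold change -0.11). Pdgfa, a ligand of PDGFRA, rose by 0.89 ± 0.17 (SE, edgeR adjusted p = 0.0011), and Pik3r1, a kinase subunit downstream of both receptors, fell by 0.67 ± 0.10 (SE, edgeR adjusted p = 0.00030), with Pdgfrl at -0.43 and Pdgfc at -0.40. Of 7 genes tested among 8 relatives and partners of FAP, 3 fell and none rose (median -0.05), led by Dpp4, the closest relative, which fell by 3.39 ± 0.25 (SE, edgeR adjusted p = 7.8e-07), with Itga3 at -0.97 and Plaur at -0.82. Of 6 tested among 7 podoplanin partners, 2 rose and 1 fell (median 0.22), and Ezr, which encodes ezrin, rose by 1.12 ± 0.15 (SE, edgeR adjusted p = 8.4e-05), with Cd44 at 0.29 and Cd9 at -0.48. Of 7 tested among 9 genes for THY1 partners and the Notch axis, none rose and 2 fell (median -0.03), among them Heyl, a Notch target, by 2.63 ± 0.41 (SE, edgeR adjusted p = 0.00028), and Itgb3 by 0.68. Of 12 other fibroblast surface markers, 4 rose and 6 fell (median -0.62), with Cd34 down by 2.01 ± 0.12 (SE, edgeR adjusted p = 1.6e-07), Cd55 at -1.80, Itga11 at -1.62 and Vcam1 up by 1.14 ± 0.13 (SE, edgeR adjusted p = 2.8e-05). The background of 40.2% applies to each of these counts. The values are sums over fibroblast classes whose mix differed, with Pi16+ cells at 43.0% of healthy and 0.216% to 2.49% of arthritic fibroblasts by group. Cd55 is also among the lining markers. Changes of the list genes without Pi16+ cells or within classes were not examined, so a change per cell cannot be read from these values. The same holds for the list genes in the comparisons below.

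The same lists were counted between treatments. Under TNF inhibition, where 5.55% of all genes were called, 1 of 12 PDGF genes fell, Nrp1 by 1.01 ± 0.13 (SE, edgeR adjusted p = 0.0042), 2 of 7 genes of the THY1 and Notch list fell, Notch3 by 1.2 ± 0.19 (SE, edgeR adjusted p = 0.0084) and Heyl by 1.95 ± 0.41 (SE, edgeR adjusted p = 0.025), and 1 of 12 other surface markers rose, Ly6a by 0.51 ± 0.14 (SE, edgeR adjusted p = 0.048). Under IL-17 inhibition, where 8.45% of all genes were called, Pdgfb, the main ligand of PDGFRB, rose by 1.48 ± 0.37 (SE, edgeR adjusted p = 0.029), Msn by 0.33 ± 0.09 (SE, edgeR adjusted p = 0.048), Itgb3 by 0.88 ± 0.13 (SE, edgeR adjusted p = 0.0031) and 3 of 12 other surface markers, Itga11 by 0.94, Vcam1 by 0.61 and Icam1 by 0.57 (edgeR adjusted p = 0.020, 0.017 and 0.039). These were 1 of 12, 1 of 6, 1 of 7 and 3 of 12 genes of their lists. More list genes were called between the inhibitors, where 7.6% of all genes were. Of 12 other surface markers, 6 were higher and 1 lower under IL-17 than under TNF inhibition (median 0.39, against -0.01 over all genes). Lrrc15 was 2.37 higher, Cd55, a complement regulator, 1.13 higher, Itga11 0.87 higher and Alcam, an adhesion molecule, lower at -1.17 (log2, edgeR adjusted p = 0.0092, 0.0092, 0.025 and 0.036). Of 12 PDGF genes 3 were higher (median 0.05), Pdgfb by 2.04, Nrp1 by 0.66 and the ligand Pdgfc by 0.55 (edgeR adjusted p = 0.0083, 0.0085 and 0.019). Of 7 genes of the THY1 and Notch list 3 were higher (median 0.47), Heyl by 2.74 ± 0.39 (SE, edgeR adjusted p = 0.0018), Notch3 by 1.77 ± 0.19 (SE, edgeR adjusted p = 0.00031) and Itgb3 by 0.64 (edgeR adjusted p = 0.010). Of 7 relatives and partners of FAP 1 was higher, Dpp4 by 1.70 ± 0.33 (SE, edgeR adjusted p = 0.0085), and of 6 podoplanin partners none was called. These values share animals with the comparisons against untreated animals. Notch3 and Heyl are also genes of mural cells, whose marker sums are given above, and the part of mural RNA in these differences was not tested.

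In FAP-sorted animals, where 42.9% of all genes were called (21.3% up and 21.5% down), all 6 podoplanin partners tested fell (median -0.42, against -0.01 over all genes), among them Ezr by 0.48, Cd9, a tetraspanin, by 0.42, Lgals8 by 0.41 and the chemokine Ccl21a by 6.67 ± 0.45 (SE, edgeR adjusted p = 1.1e-05). Ccl21a is also made by lymphatic endothelium, whose markers summed to 1.29 to 2.05 CPM there against 7.03 to 11.1 in untreated animals. Ccl21a is itself a gene of that marker list, so the sum is no separate evidence, and the source of its fall was not tested. Of the PDGF list, 2 of 12 rose, Pdgfrl by 0.89 ± 0.12 (SE, edgeR adjusted p = 0.00037) and Pdgfa by 0.68 ± 0.15 (SE, edgeR adjusted p = 0.0045), and 3 fell, with Sos1 at -0.36 and Shc1 at -0.29, which is 5 of 12 called and about the share over all genes. Of the relatives and partners of FAP 2 of 6 tested fell, Plaur by 0.45 and Dpp8 by 0.33, and of the THY1 and Notch list 1 of 7 rose, Itgb5 by 0.51, and 2 fell, Jag1 by 0.45 and Sdc4 by 0.32. Of the other surface markers 3 of 12 rose and 2 fell, with Itga11, a collagen-binding integrin, up by 1.45 ± 0.19 (SE, edgeR adjusted p = 0.00037), Lrrc15 up by 1.01, Cd55 at -0.96 and Alcam at -0.83. These shares, too, are near that over all genes.

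Genes whose pattern was most like each marker were ranked by Pearson correlation over 108 sums by animal and class, among 7402 genes with a mean of at least 10 CPM, as a description. The sums share libraries, depth and class composition. Fap was most like Pth1r (r = 0.86), Enah (0.85) and Lmo7 (0.83), and Pdpn most like Tnfaip6 (0.75), C3 (0.73) and Cstb (0.70). Thy1 was most like Olfml1 (0.83), AW551984 (0.83) and Igf1 (0.81), and Cd248 most like Efemp1 (0.85), Dnpep (0.84) and Emilin2 (0.83). Pdgfra was most like Plpp3 (0.77), Tmem131 (0.74) and Scara5 (0.72), and Pdgfrb most like Itgbl1 (0.84), Twist1 (0.82) and Aspn (0.82). Among the 6 markers themselves no pair reached these values: the closest were Fap with Pdgfrb (0.48) and Cd248 with Pdgfra (0.48), and Fap ran against Pdpn (-0.50).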

How the data were processed

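Single-cell RNA and hashtag libraries of mouse synovial cells were analysed from the deposited matrices of raw UMI counts, for which the file headers name Cell Ranger 6.0.0 (unsorted) or 5.0.0 (FAP-sorted) as the authors' tool. Version 6.0.6 and build mm10 stand in the submitters' processing notes. The wells were hyper-loaded with up to 25000 cells, per the labels' protocols, and doublet removal and class naming by the authors are not given in the sources used here, so annotated cells were used as deposited. The annotation also held the authors' mitochondrial fraction and stress score, used as descriptions, with other columns unused. Barcodes outside the annotation served only as background: those with at least 500 genes, at most 10% mitochondrial UMIs and at least 3 of 6 markers of 1 cell type.

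Counts of the 5 fibroblast classes, or of 1 class with at least 20 cells, were added up by animal and compared in edgeR 4.0.16 (run in R 4.3.3 with TMM, filterByExpr, quasi-likelihood, Benjamini-Hochberg over all genes, threshold 0.05). The 12 unsorted animals shared a fit by group, a second fit with library as a term set arthritic against healthy animals, and FAP-sorted and untreated animals (n = 8) were fitted together. The Mmp3+ minus Il6+ differences used limma 3.58.1 on the difference of log2 CPM between the classes of each animal. Shares used Python 3.11.15, numpy 2.4.6, pandas 2.3.3 and scipy 1.17.1, with cells thinned to 3000 UMIs. Depth was 4508588 to 36786390 UMIs per animal, and floors cover counting error only. Alternatives were DESeq2 1.42.0, other scalings and filters, all 7 classes, no Pi16+ cells, a library, sex or replicate term, hashtag rules and animals left out. The scripts were tested on simulated data.

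The rule for naming took all 6 markers in each comparison of summed fibroblasts, from each of the 5 related lists up to 4 called genes with the largest change, and the 3 genes most correlated with each marker. List genes of each treatment group against healthy animals, which overlap the comparison within libraries, are not given. Sequence of chromosome 18 was not used here. The markers and lists were chosen with earlier results of these data known.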

Additional observations from a re-analysis of the deposited data

Results flagged for a closer look

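In FAP-sorted animals, Fap in Lining cells stood at 37.1 CPM in animal 4, apart from the other 4 animals at 55.3 to 58.2 CPM. Pdgfra in Mmp3+ cells stood at 225 CPM in animal 2, apart from the others at 197 to 200 CPM. Each gap was larger than Dixon's 95% limit for 5 samples. A total of 43 groups of 4 to 10 values were examined in this way, and chance sets apart about 1 in 20 groups. The Fap value rests on 28 UMIs in 42 cells.

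The change of Thy1 differed between Mmp3+ and Il6+ cells. The difference was -1.01 on the log2 scale for TNF-inhibited against untreated animals and 1.01 for IL-17-inhibited against TNF-inhibited animals. Of 24 such differences, 6 genes in 4 comparisons, these 2 passed the limma threshold, and they share the TNF-inhibited animals. Each was lost in most fits with 1 animal left out, as given above. Thy1 in TNF-inhibited Mmp3+ cells lay below the other conditions in all 3 animals.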

How the results depend on the processing

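Of 188 alternative values for the main comparisons, 127 kept their direction and side of the threshold or stayed within 1.5 times the count. The count of 5 markers called in FAP-sorted against untreated animals did so under all alternatives, with the same genes. The count of 3 in untreated against healthy animals stayed within 1.5 times, but not with the same genes: without Pi16+ cells Cd248 (-0.64) and Pdgfrb (-0.28) lost their calls and Pdgfra (0.27) was called, and Pdgfrb was lost with raw-count hashtags (-0.16). For TNF-inhibited against untreated animals, 2 markers became 1 without a filter, without Pi16+ cells, with all 7 classes, with a sex term and with the replicate block, 0 with a library term and with raw-count hashtags, and 0 to 3 with an animal left out. For IL-17-inhibited against untreated animals, 1 became 0 with a library term, raw library sizes, raw-count hashtags, the replicate block and with each animal left out in turn. Between the inhibitors, 2 became 0 with all 7 classes or a library term, 1 with a sex term and 0 to 2 with an animal left out. Against healthy animals, 5 markers under TNF inhibition became 3 without Pi16+ cells or with raw-count hashtags, and 5 under IL-17 inhibition became 1 without Pi16+ cells, 3 with all 7 classes, 1 with a library term, 2 with raw-count hashtags and 3 to 4 with an animal left out. Within libraries 4 became 2 without Pi16+ cells, where Thy1 reversed to 0.21, and under IL-17 inhibition Thy1 reversed to 0.41 and Pdgfra to 0.01. With at least 50 cells per class, the calls by class became 5 under TNF inhibition (from 8) and 5 under IL-17 inhibition (from 10), with fewer animals in the fits.

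The Mmp3+ minus Il6+ difference of Thy1 ranged from -1.12 to -0.84 and from 0.88 to 1.11 with an animal left out. The share of Fap cells with Thy1 differed between arthritic and healthy animals by -5.88 points unthinned, -17 at 6000 UMIs, 0.453 without Pi16+ cells and -12.5 to -7.18 with an animal left out, against -10.3. Between FAP-sorted and untreated animals it was 2.82 at 6000 UMIs, 2.79 unthinned and -1.95 to 1.96 with an animal left out (1.96 without untreated animal 1), against -0.566. The cause of these moves was not tested.

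Replicate numbers are hashtag numbers, and same-numbered animals correlated at -0.17 to 0.17 in their deviations, so the numbers were not taken as pairs, although each untreated and TNF-inhibited animal correlated best with its own number. With the replicate block Thy1 under TNF inhibition was the marker still called, and Pdgfra was not (-0.29, adjusted p = 0.070, and -0.28, adjusted p = 0.072, under IL-17 inhibition). The block changed no other count. Raw-count hashtags, raw library sizes, the sex term, cells without Y-linked UMIs and animals left out by class were chosen after seeing the data. With 3 healthy animals of 413 to 749 fibroblasts, depth limits low genes such as Thy1 in Lining cells.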

Other observations

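Barcodes outside the annotation held these transcripts too. The 377 barcodes with mural markers (median 10876 UMIs) held Pdgfrb at 242 CPM, Pdpn at 143, Thy1 at 117, Pdgfra at 83.0, Cd248 at 54.4 and Fap at 35.2 CPM of their summed UMIs. The 1013 barcodes with blood endothelial markers held Pdpn at 40.7, Pdgfra at 35.5, Pdgfrb at 9.85, Thy1 at 7.82, Fap at 7.66 and Cd248 at 7.35 CPM. The 589 barcodes with keratinocyte markers (median 21462 UMIs) held Pdpn at 62.8, Pdgfra at 50.7, Thy1 at 14.7, Pdgfrb at 11.4, Fap at 10.2 and Cd248 at 8.98 CPM. These barcodes were given no animal, and their levels are sums over libraries.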
